A study of Mus musculus with 1 sample.

Results

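Mouse homologs of 9 genes that are recurrently mutated in human myeloid neoplasms, *Calr*, *Asxl1*, *Ezh2*, *Idh1*, *Idh2*, *Sf3b1*, *U2af1*, *Nras* and *Ptpn11*, were followed in RNA-seq of sorted bone marrow (BM) cells. They were taken by name, and all 9 were found among the 54532 genes of the deposited table. The library came from sorted c-kit+ BM cells of Ctrl mice, which are C57BL/6 animals of wild-type genotype. The gate in the sample's labels is Lin-, c-kit+ and Sca1-, and neither the age nor the number of Ctrl mice is given for this library. For such a gate the mRNA of *Kit* was low and that of neutrophil genes was high. Whether the latter came from mature cells or from precursors was not tested. *Kit*, which encodes the receptor used in the sort, had 7.17 FPKM (fragments per kilobase of gene, scaled to the library's total), below all 9 genes. Genes listed for mature neutrophils summed to 53131 FPKM beside 1871 FPKM for progenitor markers. Among the latter, *Elane*, *Mpo*, *Prtn3* and *Ctsg* had 781, 434, 379 and 241 FPKM. By contrast, *Cd34*, *Gata2* and *Myb* had 5.22, 6.82 and 16.5 FPKM, so the sum says little about *Kit* and these genes. The study set these cells beside c-kit+ BM cells of *Gadd45g*+/- mice with myeloproliferative neoplasm (MPN), and the library of those mice was not analysed here. In them *Vav-Cre* deletes 1 allele of *Gadd45g* throughout the hematopoietic system. There is therefore 1 library without replicates, no test between groups, and no measure of the spread between mice.

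Clonal myeloid diseases arise when a stem or progenitor cell acquires a mutation that gives its progeny an advantage. The genes hit fall into a few kinds of cell machinery: the calreticulin chaperone; the Polycomb-linked chromatin regulators ASXL1 and EZH2; the metabolic enzymes IDH1 and IDH2, whose mutant forms make 2-hydroxyglutarate; the splicing factors SF3B1 and U2AF1, which find the 3′ splice site; and NRAS and the phosphatase SHP2, encoded by *Ptpn11*, which carry signals from cytokine receptors. The values here are mRNA levels of the unmutated mouse genes and say nothing about mutations.

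All 9 genes were well expressed. Their levels ran from 17.2 FPKM for *Nras* to 268 FPKM for *Calr*, a 15.6-fold range, and the median was 27.5 FPKM. Among the 21322 genes above 0 the median was 1.77 FPKM, and among the 14860 protein-coding genes above 0 it was 4.22 FPKM. All 9 genes reached 1 FPKM, beside 22.2% of all genes of the table and 46.8% of the 21995 protein-coding ones. All 9 also reached 10 FPKM, beside 9.37% of all genes and 21.2% of protein-coding genes. The lowest of them, *Nras*, lay above 79.2% of the protein-coding genes above 0, and *Calr* above 99.04%.

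Rounded fragments, taken from the FPKM values and gene lengths, came to 17113323 over all genes, and the 9 genes held 0.202% of them. Genes whose FPKM times length gave a whole number held 15899824, and the fragments of the others are uncertain. The total by which the deposited values were divided, read from the FPKM worth of 1 fragment, was smaller, at 15783891, and the cause of the gap was not tested. From 1124 fragments for *Idh2* to 12198 for *Calr*, each gene rests on enough fragments that its 95% Wilson interval is narrow. These intervals cover counting error only, and not the spread between mice. They may be too narrow even for counting error, because fragments copied from 1 molecule by PCR are not independent. *U2af1* was given no interval, since its FPKM times its annotated length was not a whole number of fragments (3331.52). Such misses were common on chromosomes 17, 18 and 19, where 64.6% of the genes gave whole numbers, against 99.9% elsewhere.

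**Figure D1:**
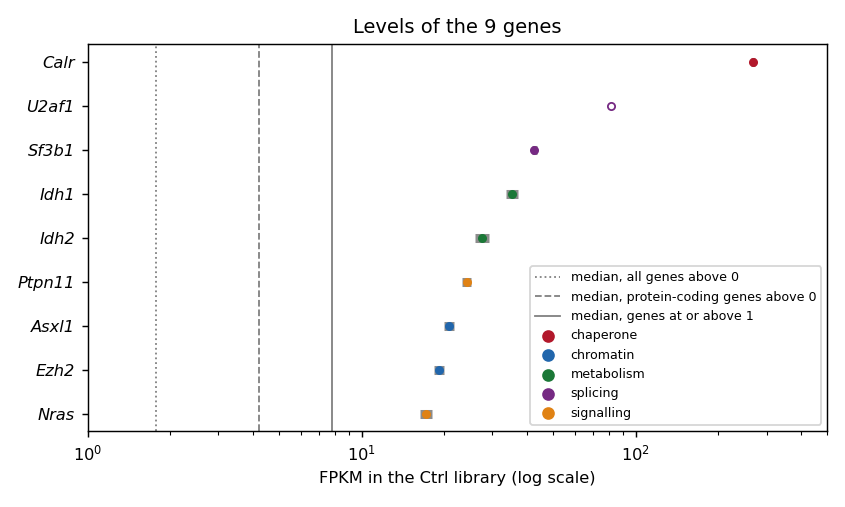
Level of each gene in the Ctrl library in FPKM on a log axis, coloured by the kind of machinery. Grey bars are 95% Wilson intervals of counting error, and the open circle (*U2af1*) has no interval. Vertical lines are medians over genes above 0, protein-coding genes above 0 and genes at or above 1 FPKM, at 1.77, 4.22 and 7.77 FPKM. All 9 genes lie to the right of the highest line.

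*Calr* (ENSMUSG00000003814, GRCm38 chr8:84841850-84846934, reverse strand) encodes calreticulin, a calcium-binding chaperone of the endoplasmic reticulum (ER) that folds glycoproteins. It had 268 FPKM (95% Wilson interval, 264 to 273), and 162 genes of the library were higher. *Calr* was also the highest of 10 ER chaperone genes, at 1.68 times *Hspa5* (exact 95% interval of counting error, 1.63 to 1.72), which encodes BiP, and 3.68 times *Canx* (3.57 to 3.80), which encodes the membrane-bound relative calnexin. Without division by length *Calr* was 2.26 times *Canx*. Of the other 9 chaperone genes, 6 reached 10 FPKM, and all 6 lay between 45.2 FPKM for *Pdia4* and 160 FPKM for *Hspa5*. The other 3 did not reach 1 FPKM. They are *Clgn*, *Calr3* and *Calr4*, relatives of calnexin and calreticulin of which *Clgn* and *Calr3* are known from testis, and they had 0.787, 0.161 and 0.126 FPKM. *Calr3* and *Calr4* rested on 5 fragments each.

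Many ER chaperone genes carry the ER stress response element, to which the transcription factors ATF6 and NF-Y bind. It was searched for as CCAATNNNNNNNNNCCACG on both strands of 32851 RefSeq promoters of GRCm38.p6, each 250 bases before to 50 bases after a transcription start. The element contains CCAAT, which alone was found for 5 of the 9 genes and in 37.4% of all promoters, whereas 39 promoters, or 0.119%, held the whole element. *Calr* was the 1 gene among the 9 with a match, and 6 of the 9 ER chaperone genes in the promoter table had one. The matches are shown because *Calr* shares the element with other ER chaperone genes and with none of the other 8 genes. Each is read in the direction of the element, with its fixed letters in capitals.
Calr: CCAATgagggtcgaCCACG
Hspa5: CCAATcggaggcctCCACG
Hsp90b1: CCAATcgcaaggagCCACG
Canx: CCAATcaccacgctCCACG
Pdia6: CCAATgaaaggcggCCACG
Calr4: CCAATggttggggaCCACG
The genes of the first 5 sequences had 268, 160, 104, 72.8 and 59.6 FPKM, while *Calr4* had 0.126 FPKM, so a match went with high and with very low levels. *Hsp90b1* held a further match, and *Pdia3*, at 148 FPKM, held none. In *Calr* the element lies on the opposite strand, from 162 to 144 bases before the start. The 250 bases before the start of *Calr*, at chr8:84846932-84847181 on the reverse strand of GRCm38.p6, show the element in capitals as it reads on the gene's strand.
Calr: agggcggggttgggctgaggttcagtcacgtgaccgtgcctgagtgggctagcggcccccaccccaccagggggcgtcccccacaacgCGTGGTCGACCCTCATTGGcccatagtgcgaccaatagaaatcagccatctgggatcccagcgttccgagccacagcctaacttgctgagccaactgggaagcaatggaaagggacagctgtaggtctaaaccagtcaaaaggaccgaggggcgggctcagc
A match is a description of the letters and not evidence that a factor is bound there.

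By deposited FPKM the chromatin regulators *Asxl1* and *Ezh2* stood near the low end of the 9, at ranks 7 and 8. By the length of the longest protein-coding transcript, *Ezh2* was at rank 4. *Asxl1* (ENSMUSG00000042548, chr2:153345829-153404007, forward strand) encodes a partner of the deubiquitinase BAP1, with which it removes ubiquitin from histone H2A. It had 20.8 FPKM (20.03 to 21.69). *Bap1* itself was at 20.2 FPKM, and the ratio of *Asxl1* to *Bap1* was 1.03, with an interval of 0.966 to 1.10 that holds 1. With fragments divided by the longest protein-coding transcript in place of all exons of the gene, it was 0.812, so that the length used decides whether both stand level. The paralogs were lower: *Asxl2* had 3.95 FPKM, so that *Asxl1* was 5.28 times *Asxl2* (4.90 to 5.69), or 2.47 times without division by length, since the exons of *Asxl2* cover 15941 bases and those of *Asxl1* 7444. *Asxl3* is listed at 0, which allows up to 0.0122 FPKM at 3 fragments. Among the 10 other genes listed for this deubiquitinase complex, 8 reached 1 FPKM and 6 reached 10 FPKM. The highest was *Hcfc1*, which encodes a large scaffold of transcription complexes, at 45.2 FPKM.

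*Ezh2* (ENSMUSG00000029687, chr6:47530139-47595341, reverse strand) encodes the methyltransferase of Polycomb repressive complex 2 (PRC2), which methylates histone H3 at lysine 27. It had 19.1 FPKM (18.29 to 19.96), or 1.88 times the alternative enzyme *Ezh1* (1.75 to 2.02), at 10.2 FPKM. Of the core subunits, *Suz12* was higher than *Ezh2*, at 30.1 FPKM, and *Eed* was lower, at 13.6 FPKM. The ratio of *Ezh2* to *Suz12* was 0.636 (0.599 to 0.675) and that of *Ezh2* to *Eed* was 1.41 (1.299 to 1.531). With the longest protein-coding transcript as length the first ratio turned to 1.35, and the second was 1.82, so whether *Ezh2* or *Suz12* is higher depends on the length. All 10 other PRC2 genes reached 1 FPKM, from *Phf19*, an accessory subunit, at 3.02 FPKM to *Rbbp7*, a histone-binding subunit shared with other complexes, at 48.7 FPKM.

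*Idh1* and *Idh2* encode the NADP-dependent isocitrate dehydrogenases of the cytosol and of mitochondria, which make 2-oxoglutarate. *Idh1* (ENSMUSG00000025950, chr1:65158616-65186500, reverse strand) had 35.4 FPKM (33.7 to 37.2). *Idh2* (ENSMUSG00000030541, chr7:80094846-80115392, reverse strand) had 27.5 FPKM (26.0 to 29.2). *Idh2* was thus 0.778 times *Idh1* (0.720 to 0.841). By the longest protein-coding transcript the ratio was 0.958 with an interval of 0.887 to 1.04, so the difference between them depends on the gene length used. The NAD-dependent enzyme of the citric acid cycle is built from *Idh3a*, *Idh3b* and *Idh3g*, which had 11.9, 23.9 and 37.6 FPKM. *Idh1* and *Idh3g* could not be told apart by counting error, with a ratio of 0.942 (0.878 to 1.01), but by the longest protein-coding transcript it was 0.559. *D2hgdh*, which encodes the enzyme that removes the D form of 2-hydroxyglutarate, was lower, at 5.11 FPKM.

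Both splicing factors ranked high. *Sf3b1* (ENSMUSG00000025982, chr1:54985169-55027481, reverse strand) encodes the largest protein of the SF3B complex, which holds the U2 snRNP at the branch point. It had 42.7 FPKM (41.7 to 43.7), 2.53 times its neighbour in the complex *Sf3b3* (2.42 to 2.64), at 16.9 FPKM. All 9 other genes of SF3A and SF3B reached 10 FPKM. Apart from *Sf3b2*, at 110 FPKM and the highest of the list, they lay between 16.2 FPKM for *Sf3b5* and 32.1 FPKM for *Sf3b4*, all below *Sf3b1*.

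*U2af1* (ENSMUSG00000061613, chr17:31647081-31658892, reverse strand) encodes the small subunit of U2AF, which reads the AG at the end of the intron. At 81.2 FPKM it was the second of the 9 and 1.36 times *U2af2*, which encodes the large subunit and had 59.9 FPKM. Taken as fragments alone, with no length, the ratio was 0.857. That value rests on 3332 fragments of *U2af1*, rounded from an annotated length that did not give a whole number. The fragments of *U2af1* are therefore uncertain, and which subunit is higher is not settled. The relatives *Zrsr1* and *Zrsr2*, of which ZRSR2 serves the minor spliceosome, had 7.05 and 4.34 FPKM. *U2af1l4* is listed at 0, which allows up to 0.115 FPKM at 3 fragments, but 65.6% of its exon bases overlap exons of *Gm49396* on the same strand. Whether fragments there were left uncounted was not tested.

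*U2af1* was the 1 gene among the 9 that shared much sequence with another gene. Of its 2734 distinct windows of 50 bases, 21.7% also occur in transcripts of other genes, mostly the processed pseudogene *Gm10232*, elsewhere on chromosome 17. Along the 717 coding bases of *U2af1*, the copy is identical at 715, or 99.7%. The differences are A120G and A188G, counted from 1 at the A of the start codon with the base of *U2af1* given first. They are shown in capitals because a fragment can be told to come from the copy, within these coding bases, only where it covers them.
U2af1: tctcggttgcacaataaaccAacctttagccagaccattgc
Gm10232: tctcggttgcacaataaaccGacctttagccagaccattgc
U2af1: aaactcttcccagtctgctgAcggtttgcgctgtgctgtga
Gm10232: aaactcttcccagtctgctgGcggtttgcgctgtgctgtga
*Gm10232* had 16.1 FPKM from 183 fragments. How fragments with more than 1 place to map were counted is not given in the sources used here, so the level of *U2af1* is uncertain to that extent. For the other 8 genes at most 2.004% of the 50-base windows were shared, and for *Idh1* and *Idh2* none of 2859 and 2826 were. Outside the 9, *U2af2* shared 14.7% of its 4346 windows, mostly with the processed pseudogene *Gm5846*, so its level is uncertain in the same way. Exons of *Asxl1* and *Ezh2* overlap genes on the opposite strand over 2.65% and 2.61% of their bases, and those genes had 1.68 and 0.0749 FPKM.

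The signalling genes included the lowest of the 9. *Nras* (ENSMUSG00000027852, chr3:103058285-103067914, forward strand) encodes a small GTPase that relays receptor signals to the RAF kinases. It had 17.2 FPKM (16.3 to 18.1). The related *Hras* was at 13.1 FPKM, so that *Nras* was 1.32 times *Hras* (1.21 to 1.44), and by the longest protein-coding transcript 1.19 times. The more distant *Mras* had 0.839 FPKM.

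The genes around RAS were spread widely. All 6 listed exchange factors, which load RAS or related small GTPases with GTP, reached 1 FPKM. They ran from *Sos1* at 2.88 FPKM to *Rasgrp4*, known from mast cells and myeloid cells, at 28.8 FPKM. That top place depends on the length: *Rasgrp2*, at 19.7 FPKM, had more fragments than *Rasgrp4* (3844 against 2889), and by the longest protein-coding transcript it had 106 against 39.6. Of 6 GTPase activators, which switch RAS off, 5 reached 1 FPKM. *Rasa3* was highest at 45.5 FPKM, and *Nf1*, itself a tumour suppressor of myeloid leukaemia, was lowest at 0.931 FPKM from 233 fragments (0.819 to 1.06). All 7 RAF, MEK and ERK kinases reached 1 FPKM, from *Braf* at 3.46 FPKM to *Mapk3*, which encodes ERK1, at 95.2 FPKM.

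*Ptpn11* (ENSMUSG00000043733, chr5:121130533-121191397, reverse strand) encodes SHP2, a phosphatase with SH2 domains that promotes RAS signalling. It had 24.2 FPKM (23.3 to 25.1). The related *Ptpn6*, which encodes SHP1, an inhibitor of signalling in blood cells, was the highest of its list at 167 FPKM, and *Ptpn11* was 0.145 times *Ptpn6* (0.139 to 0.152). Without division by length it was 0.388 times, still lower. The adaptor *Grb2* had 93.5 FPKM, and the docking proteins that bind SHP2 had less, with 6.46 FPKM for *Gab2*, 2.57 FPKM for *Gab1* and 1.56 FPKM for *Gab3*.

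**Figure D2:**
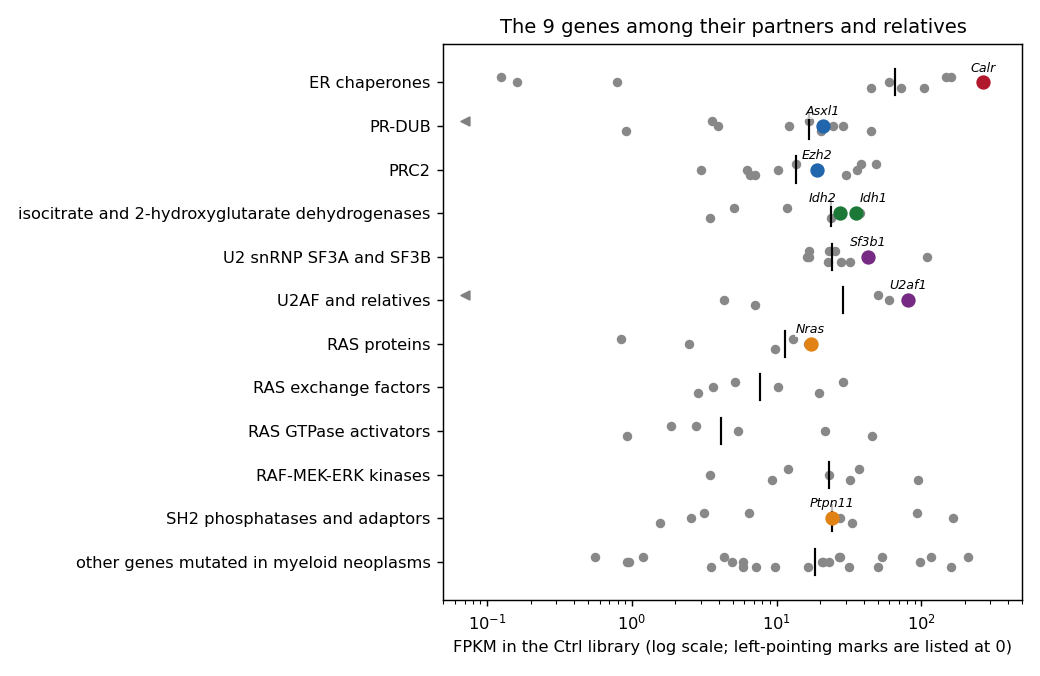
Level of each gene of the partner lists in the Ctrl library in FPKM on a log axis, 1 list a row, with the 9 genes as large coloured points, partners in grey, list medians as black ticks and genes listed at 0 as arrowheads. *Calr*, at 268 FPKM, lies at the right end of the chaperone row, while *Asxl1*, *Ezh2* and *Ptpn11* lie inside their rows.

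Over all partner lists together, 72 of 80 partner genes reached 1 FPKM and 48 reached 10 FPKM, with a median of 16.3 FPKM. Beside these counts and those of the single lists, 46.8% of all protein-coding genes reached 1 FPKM and 21.2% reached 10 FPKM. By the longest protein-coding transcript, other genes than those named led the PRC2 genes, the exchange factors and the further genes mutated in myeloid neoplasms.

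**Figure D3:**
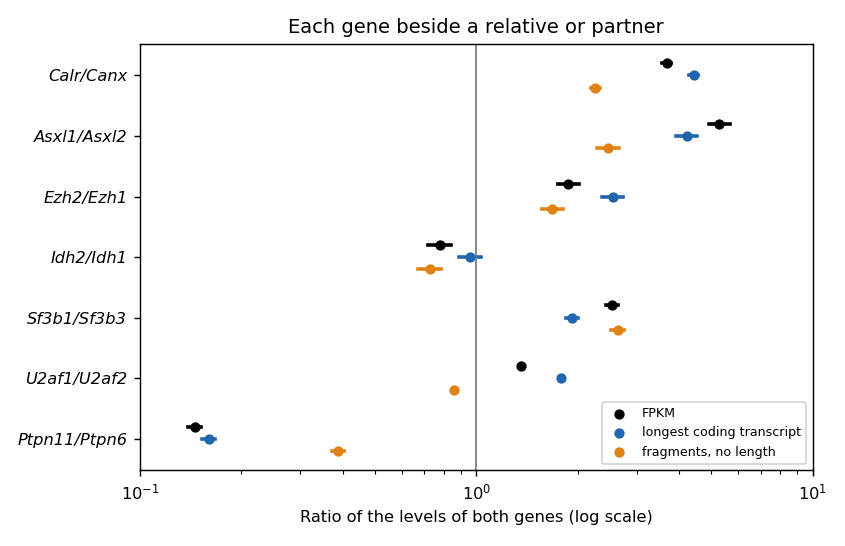
Ratio of a gene to a relative or partner on a log axis, *Nras* left out, from FPKM (black), with fragments divided by the longest protein-coding transcript (blue), and without division by length (orange). Bars are exact 95% intervals of counting error, absent for *U2af1*/*U2af2*, where the fragments of *U2af1* are uncertain. That ratio lies on both sides of 1.

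The order of the 9 genes from high to low was *Calr*, *U2af1*, *Sf3b1*, *Idh1*, *Idh2*, *Ptpn11*, *Asxl1*, *Ezh2* and *Nras*. From *Sf3b1* down, each gene was 1.09 to 1.29 times the next, and none of these 6 intervals of counting error held 1. The nearest was *Asxl1* over *Ezh2*, at 1.09 (1.03 to 1.16). With 1 library, these steps cannot be set against the differences from mouse to mouse.

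Part of this order depends on how long a gene is taken to be. The deposited values divide by all bases that any transcript of a gene covers, and those include introns kept in some transcripts. *Ezh2* has 15 annotated transcripts over 6678 exon bases, of which its longest protein-coding transcript covers 2787, so 58.3% lie outside it. The median of that share was 20.7% over 14843 protein-coding genes, and *Ezh2* lay above 91.3% of them. *U2af1*, with 59.7%, and *Sf3b1*, with 45.5%, also had much length outside, whereas *Asxl1* had 6.22%. With fragments divided by the longest protein-coding transcript, *Ezh2* went from 19.1 to 45.8 and from rank 8 to rank 4 among the 9, and *Asxl1* from 20.8 to 22.2. *Asxl1* was then 0.485 times *Ezh2*. *Calr*, *U2af1* and *Sf3b1* kept ranks 1 to 3 and *Nras* kept rank 9.

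**Figure D4:**
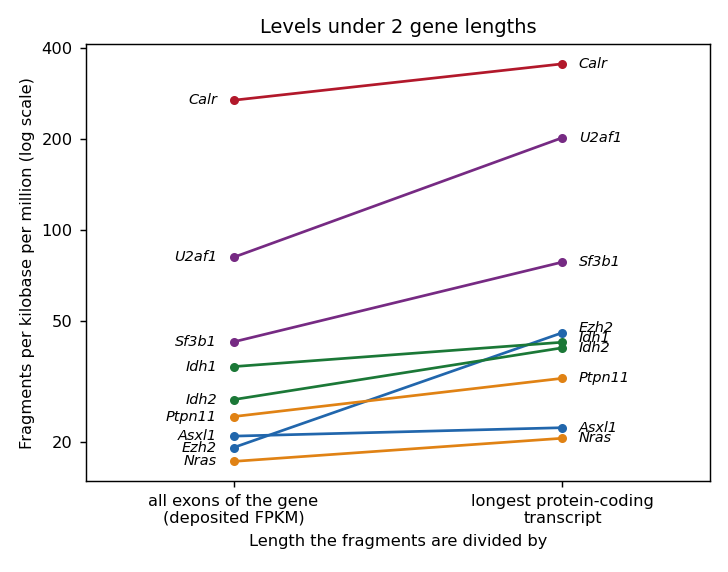
Fragments per kilobase, scaled to the library's total, on a log axis for the 9 genes, with the length taken as all exons (left, the deposited FPKM) or as the longest protein-coding transcript (right). The line of *Ezh2* rises from 19.1 to 45.8 and crosses those of *Asxl1*, *Ptpn11*, *Idh2* and *Idh1*, while *Calr* stays on top and *Nras* at the bottom.

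The promoters of the 9 genes were rich in CpG, as is usual for widely expressed genes. All 9 were in the RefSeq table, with 11 promoters. Their median ratio of observed to expected CpG was 0.876 and their median GC content 63.7%, beside 0.384 and 52.7% over all 32851 promoters and 0.781 and 61.0% over the 4806 promoters of genes at or above 10 FPKM. The GC box GGGCGG, the site of SP1, was found on either strand for 8 of the 9 genes, all but *Ezh2*. It was in 10 of the 11 promoters, beside 35.7% of all promoters and 63.9% of those of genes at or above 10 FPKM. The lowest CpG ratios of the group were those of *Idh2*, *Asxl1* and *Calr*, at 0.571, 0.613 and 0.631, and the highest were those of *Ptpn11* and of 1 promoter of *U2af1*, both at 1.07.

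A further 24 genes mutated in myeloid neoplasms were listed for comparison. Of these, 21 reached 1 FPKM and 13 reached 10 FPKM, beside 46.8% and 21.2% of all protein-coding genes. Their median was 18.5 FPKM. They ran from 0.560 FPKM for *Setbp1*, which encodes a binding partner of the SET oncoprotein, to 212 FPKM for *Csf3r*, the receptor of granulocyte colony-stimulating factor. This range was wider than that of the 9, but the list is longer. Both lists were also chosen with earlier results of these data known, so the contrast is no trait of the 9.

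These levels are those of a mixture of cells. All 8 progenitor markers were found, from 5.22 FPKM for *Cd34* to 781 FPKM for *Elane*. Genes listed as markers of neutrophils, erythroid cells, B cells, macrophages and T cells were found too, and none was at 0. Whether their RNA came from mature cells, which a Lin- gate is meant to remove, or from precursors of them was not tested. All 8 mature neutrophil genes, all 6 erythroid genes, with 42572 FPKM summed, all 6 B cell genes, with 6685, all 5 macrophage genes, with 197, and all 5 T cell genes, with 25.3, reached 1 FPKM. Over all protein-coding genes of the table, 46.8% reached 1 FPKM. How much cells of these types add to the levels of the 9 genes was not tested. In a bulk library, a different share of cells of a type and a different amount of RNA per cell cannot be told apart.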

How the data were processed

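Illumina sequencing of RNA from c-kit+ BM cells gave the Ctrl library, for which the deposited table lists 1 FPKM value per Ensembl gene, normalised by the authors for gene length and library total. The submitters' processing notes name HISAT2 2.0.5, featureCounts 1.5.0-p3 and the build mm10. The annotation release, strand setting and treatment of multimapping fragments are not given in the sources used here.

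Gene names, coordinates and exon lengths came from GENCODE M21 (GRCm38), which held 54495 of the 54532 identifiers. FPKM times exon length was a whole multiple of a common step, within 0.01, for 20547 of 21313 genes above 0 (96.4%), and 8 of the 9 genes. Rounded multiples were taken as fragments and used for 95% Wilson intervals of levels, for exact binomial 95% intervals of ratios, for limits at 0 (3 fragments) and for alternatives. No count test was possible with 1 library. Recovery was tested on simulated data, with wrong lengths at random over the genes and a total above the summed fragments. In the library, misses gathered on some chromosomes and the total was below that sum, which the simulation did not cover.

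The 9 genes and all lists were chosen with earlier results of these data known. Named by rule were the 9 genes, their relatives in the 8 ratios and the highest and lowest gene of each list. Some of these are not reported here. The other genes named were chosen after their values were seen, as were the stretches of sequence, the motifs, and the further ratios to *Hspa5*, *Bap1*, *Suz12*, *Eed*, *Idh3g* and *Hras*. Shared sequence was counted over windows of 50 bases in GENCODE transcripts on both strands. GENCODE coding lengths leave out the stop codon. Promoters are from RefSeq on GRCm38.p6. Scripts ran in Python 3.11.15, with scipy 1.17.1, pandas 2.3.3 and numpy 2.4.6 for the values and matplotlib 3.10.9 for the plots.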

Additional observations from a re-analysis of the deposited data

How the results depend on the processing

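No paired analysis was possible because a lone library has no partner to pair with. The number of genes at or above 1 FPKM was 9 of 9 also at 0.1 FPKM, at 10 FPKM and at 10 fragments. The median of the 9, 27.5 FPKM, was 30.0 FPKM without the 10 most abundant genes in the total, 25.9 FPKM without *Calr* and likewise 25.9 FPKM without *U2af1*, and 42.6 with the longest coding transcript as length. The last 2 of these were added after seeing the data. The median percentile of the 9, 89.8 among genes above 0 FPKM, was 86.9 among protein-coding genes, 82.0 among genes at or above 1 FPKM, 96.0 among all genes of the table, 93.2 for fragments not divided by length and, added later, 87.8 among protein-coding genes with the longest coding transcript as length. These follow from the background or length chosen.

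Without division by length, *Calr*/*Canx* was 2.26, *Asxl1*/*Asxl2* 2.47, *Ezh2*/*Ezh1* 1.68 and *Ptpn11*/*Ptpn6* 0.388, and *U2af1*/*U2af2* turned from 1.36 to 0.857. With the longest coding transcript as length, *Calr*/*Canx* was 4.43, *Asxl1*/*Asxl2* 4.22, *Ezh2*/*Ezh1* 2.54, *Idh2*/*Idh1* 0.958, *Sf3b1*/*Sf3b3* 1.92, *U2af1*/*U2af2* 1.79 and *Ptpn11*/*Ptpn6* 0.160. Of 29 values under alternatives, 8 stayed within counting error or within 1.5 times the count, 20 moved and 1 turned. The 1 that turned, and the 1.79 for *U2af1*/*U2af2*, rest on the uncertain fragments of *U2af1*. Depth limits only the lowest partners, such as *Calr3* and *Calr4* with 5 fragments each, and the spread between mice is unknown at every level.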
